A study of Homo sapiens with 6 samples.

Results

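Epithelial-mesenchymal transition (EMT) transcription factors were followed in 231-BR cells, a brain-seeking variant of a human breast cancer line, and in MDA-MB-231, the line it was derived from, called parental here. The set was fixed by name as SNAI1, SNAI2, ZEB1, ZEB2, TWIST1, TWIST2, PRRX1, GRHL2 and OVOL1, together with VIM, whose product vimentin is the intermediate filament protein of mesenchymal cells. Of these 10 genes, 8 were found among the 17039 genes of the expression matrix. No row matched TWIST1 or TWIST2 by symbol or gene identifier, and the expression of these genes was not analysed here. The data were RNA-seq libraries of poly(A)-selected RNA, 3 from each line, with expression given as FPKM, a count of sequenced fragments scaled by transcript length and by the mapped reads of the library. The labels do not state whether the libraries came from separate cultures, so the p-values measure only the spread between these libraries. The 231-BR cells were a gift of another laboratory and were kept in medium with 200 μg/mL G418, whereas the parental cells came from a cell bank and no G418 is given for them. Both media held 10% fetal bovine serum. The effect of the line cannot be told apart from that of the origin of the cells or of G418.

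EMT is the programme by which cells joined into an epithelial sheet lose their junctions and polarity and become motile. SNAI1 (Snail), SNAI2 (Slug), ZEB1 and ZEB2 are zinc finger repressors that bind E-box sequences in the promoters of epithelial genes such as CDH1, which encodes E-cadherin. TWIST proteins are basic helix-loop-helix factors and PRRX1 is a homeobox factor of mesenchymal tissue, and both can induce the programme. GRHL2 and OVOL1 act on the other side and keep cells epithelial. MDA-MB-231 is widely used as a mesenchymal-like, triple-negative line, and its cells have an elongated shape and little E-cadherin.

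The letters read by the SNAI and ZEB zinc fingers, CACCTG or CAGGTG on the other strand, were searched in RefSeq promoter windows of GRCh38.p14 (300 bases, from 250 before the start of a gene to 50 after it). At least 1 match stood in 20.6% of all 35116 windows and at least 3 matches in 0.635%. Windows were at hand for 5 of the 10 genes, PRRX1, ZEB2, TWIST2, VIM and ZEB1. ZEB1 had 7 windows for its alternative starts, and 2 of them held a match, whereas no match stood in the windows of the other 4 genes. Among the 39 epithelial genes listed for this comparison 22 had windows, and 18 of their 30 windows (60%) held a match, against 5 of the 45 windows (11.1%) of 31 mesenchymal genes. Both groups of genes were listed by their role in EMT, and the factors described above bind E-boxes in promoters of epithelial genes. The shares therefore describe these lists and are no independent test. Some windows of the same gene overlap. Counted by gene, 16 of the 22 epithelial and 4 of the 31 mesenchymal genes had a match in any of their windows. The median GC content was 65.7% in the epithelial windows, 61.3% in the mesenchymal windows and 58.7% in all windows. The 4 windows shown here are the ZEB1 window with 3 matches, the windows of CLDN7 and CRB3, which with 5 matches each held the most among the epithelial genes, and that of DSP, chosen after its values were seen as an epithelial gene that rose. CLDN7 has another window, not shown, which held 0 matches. Capitals mark the matches, and the start of each gene lies after base 250. The windows are chr10:31318966-31319265 on the plus strand for ZEB1, chr17:7262429-7262728 on the minus strand for CLDN7, chr19:6464021-6464320 on the plus strand for CRB3 and chr6:7541421-7541720 on the plus strand for DSP.
ZEB1: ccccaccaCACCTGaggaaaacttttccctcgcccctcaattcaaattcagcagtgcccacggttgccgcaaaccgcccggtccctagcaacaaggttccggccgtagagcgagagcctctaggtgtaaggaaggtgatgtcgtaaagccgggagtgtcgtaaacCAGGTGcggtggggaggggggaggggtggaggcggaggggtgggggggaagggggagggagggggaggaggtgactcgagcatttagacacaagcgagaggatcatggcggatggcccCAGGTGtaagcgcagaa
CLDN7: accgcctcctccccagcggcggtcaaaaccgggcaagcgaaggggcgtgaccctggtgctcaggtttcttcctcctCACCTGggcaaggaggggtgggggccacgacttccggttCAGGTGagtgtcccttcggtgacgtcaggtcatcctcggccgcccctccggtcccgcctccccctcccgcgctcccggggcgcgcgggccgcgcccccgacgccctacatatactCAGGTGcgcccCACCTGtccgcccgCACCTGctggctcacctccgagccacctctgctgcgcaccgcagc
CRB3: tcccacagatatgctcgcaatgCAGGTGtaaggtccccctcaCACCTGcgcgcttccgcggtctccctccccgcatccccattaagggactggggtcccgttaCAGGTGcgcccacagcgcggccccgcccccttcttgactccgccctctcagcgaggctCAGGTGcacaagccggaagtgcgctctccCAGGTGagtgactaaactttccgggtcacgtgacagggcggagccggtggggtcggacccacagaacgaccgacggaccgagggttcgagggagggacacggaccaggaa
DSP: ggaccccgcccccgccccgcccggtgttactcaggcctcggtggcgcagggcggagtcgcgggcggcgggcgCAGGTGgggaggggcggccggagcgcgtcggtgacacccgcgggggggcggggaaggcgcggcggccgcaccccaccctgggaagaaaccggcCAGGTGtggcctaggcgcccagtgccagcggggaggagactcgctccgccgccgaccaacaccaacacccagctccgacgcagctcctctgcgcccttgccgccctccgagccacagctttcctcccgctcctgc
In the ZEB1 window the matches begin at bases -242, -85 and 34 from the start, and in the CLDN7 window at -174, -135, -20, -9 and 6. A match of letters describes the sequence and does not show that a factor was bound there.

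Between 11166 and 11178 genes reached 1 FPKM in the 231-BR libraries and between 10785 and 10806 in the parental libraries. The files give no read counts, so the depth of the libraries is unknown. The correlation of log2 values across genes was at least 0.997 within a line and at most 0.902 between the lines. CDH1 lay between 0 and 0.01 FPKM in 231-BR cells and between 0 and 0.03 FPKM in parental cells. The markers listed for fibroblasts summed to at most 0.08 FPKM in any library over the 4 of 5 found, and those for astrocytes to at most 0.08. Of the 4 leukocyte markers only CD68 was above 1 FPKM, with PTPRC, CD3E and CD79A at or under 0.1 FPKM, and the 3 endothelial markers summed to at most 0.5. Of the luminal markers, ESR1 (0.927 ± 0.133 and 0.790 ± 0.046 FPKM, SD, n = 3 each, in 231-BR and MDA-MB-231 cells) and PGR averaged under 1 FPKM in both lines, whereas KRT8 and KRT18 were over 100 in every library and lower in 231-BR cells (log2 fold changes -0.43 and -0.37). The other luminal markers were higher in 231-BR cells, with 5.47 against 0.840 FPKM for FOXA1, 1.24 against 0.433 FPKM for GATA3 and 9.88 against 4.95 FPKM for ERBB2. Of the basal markers, EGFR alone was above 1. Summed over each list, the luminal markers, a sum made mostly of KRT8 and KRT18, lay between 461 and 474 FPKM in the 231-BR libraries and between 571 and 617 FPKM in the parental libraries, the basal markers between 88.3 and 94.5 and between 30.0 and 35.2, and the leukocyte markers between 80.7 and 84.3 and between 62.0 and 64.7. The part of these differences in the results for the EMT factors was not tested.

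To ask whether the EMT factors differed between the lines, log2(FPKM + 0.1) was compared with limma's moderated test over the 13465 genes whose mean reached 0.1 FPKM, with Benjamini-Hochberg adjusted p-values. A positive fold change means a higher value in 231-BR cells, and the scale draws the changes of low genes toward 0. The test covered 6 of the 8 genes, and GRHL2 and OVOL1 did not pass the filter. At an adjusted p under 0.05, 5 genes rose (PRRX1, SNAI2, ZEB2, ZEB1 and VIM) and 1 fell (SNAI1), where 77.3% of all genes tested were called, 44.4% of the tested genes as higher and 32.9% as lower. A call by p alone therefore says little here, and the size of the changes is given for each gene. The median log2 fold change was 0.61 over the 6 genes and 0.08 over all genes tested. The ranges of the lines were separate for each of the 6 genes, as was so for 78.4% of all genes tested. The criteria for differentially expressed genes (DEGs) also asked for |log2 fold change| > 1 and for mean values in each line of 1 FPKM or more. SNAI2 and ZEB2 passed them as higher and SNAI1 as lower, where 6.45% of all genes tested passed, 4.68% as higher and 1.77% as lower. The scaling of the libraries moves the centre of these values. The median over all genes was -0.06 after quantile normalization, a shift of over 0.1, and the share of higher among called genes went from 57.4% to 45.6%, and to 50.3% after median-of-ratios scaling. The direction of all 6 genes held under both scalings.

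**Figure D1:**
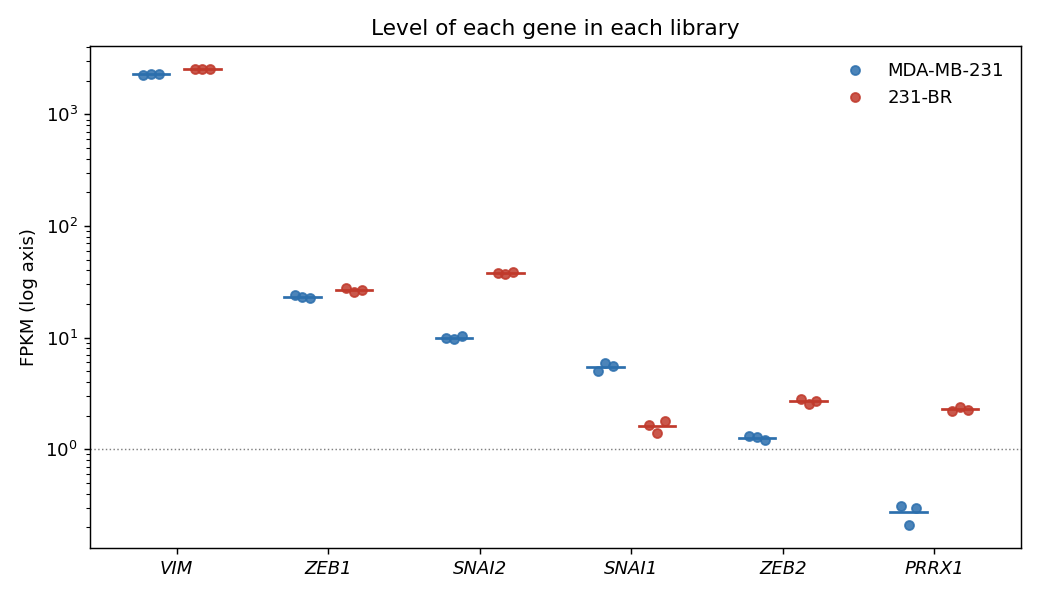
FPKM of the 6 tested genes on a log axis in the 3 MDA-MB-231 libraries (blue) and the 3 231-BR libraries (red), with a bar at each mean and a dotted line at 1 FPKM. SNAI1 is lower and SNAI2, ZEB2 and PRRX1 are higher in every 231-BR library, while ZEB1 and VIM lie close together in the lines.

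The SNAI paralogues moved in opposite directions. SNAI1 (gene identifier 6615, chr20:49982999-49988886 on the plus strand in GENCODE 29, GRCh38) had 1.65, 1.40 and 1.80 FPKM in the 231-BR libraries and 5.02, 5.90 and 5.57 FPKM in the parental libraries. Every 231-BR value lay below every parental value. The means were 1.62 ± 0.202 and 5.50 ± 0.445 FPKM (SD, n = 3 each), 3.4-fold lower in 231-BR cells, with a log2 fold change of -1.71 (standard error 0.098, 95% interval -1.93 to -1.49, adjusted p = 1.1e-07 from limma). Of the 13465 genes tested, 226 had a lower fold change. A processed pseudogene, SNAI1P1, is annotated for SNAI1, and its share in the reads was not tested.

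SNAI2 (gene identifier 6591, chr8:48917604-48921740 on the minus strand) had 37.7, 37.4 and 38.7 FPKM in the 231-BR libraries and 9.86, 9.78 and 10.3 FPKM in the parental libraries. The libraries of each line were close to each other and the lines were far apart. The mean rose 3.80-fold, from 9.97 ± 0.263 to 37.9 ± 0.697 FPKM (SD, n = 3 each), with a log2 fold change of 1.92 (standard error 0.034, 95% interval 1.84 to 1.99, adjusted p = 3.6e-11 from limma). By level, SNAI2 went from rank 6128 of the 17039 genes in parental cells to rank 2258 in 231-BR cells.

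The ratio of SNAI2 to SNAI1 within a library, which a single scaling factor per library leaves as it is but quantile normalization does not, reached 22.8, 26.7 and 21.5 in 231-BR cells but 1.96, 1.66 and 1.84 in parental cells. On the log2 scale it was 4.56 ± 0.161 against 0.86 ± 0.124 (SD, n = 3 each), a difference of 3.70, so that the balance of the paralogues shifted 13.0-fold toward SNAI2. An exact 2-sided permutation test gave p = 0.1, which is the smallest value that 3 libraries against 3 allow, and 0.1 after adjustment over the 2 pairs compared. The difference stayed between 3.61 and 3.76 when single libraries were left out.

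**Figure D2:**
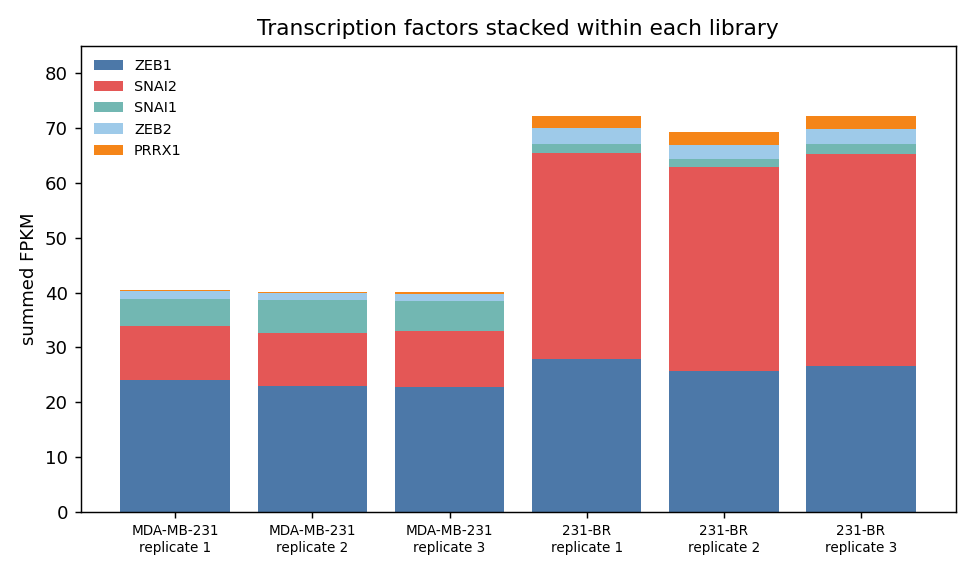
FPKM of ZEB1, SNAI2, SNAI1, ZEB2 and PRRX1 stacked in each of the 6 libraries. The stacks reach about 40.2 FPKM in parental cells and 71.2 FPKM in 231-BR cells on average, and the SNAI2 segment makes most of the difference.

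The ZEB factors both had higher values in 231-BR cells, by different amounts. ZEB1 (gene identifier 6935, chr10:31318495-31529814 on the plus strand) had 27.8, 25.6 and 26.7 FPKM in the 231-BR libraries and 24.0, 22.9 and 22.7 FPKM in the parental libraries. The lowest 231-BR library stood only slightly above the highest parental library. The means were 26.7 ± 1.09 and 23.2 ± 0.719 FPKM (SD, n = 3 each), a ratio of 1.15 and a log2 fold change of 0.20 (standard error 0.039, 95% interval 0.11 to 0.29, adjusted p = 8.1e-04 from limma). A larger absolute fold change was found for 71.5% of all genes tested. The log2 fold change was 0.12 after median-of-ratios scaling.

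ZEB2 (gene identifier 9839, chr2:144364364-144524583 on the minus strand) had 2.83, 2.54 and 2.73 FPKM in the 231-BR libraries and 1.32, 1.28 and 1.22 FPKM in the parental libraries. Each 231-BR library stood well above the parental range. The mean rose 2.12-fold, from 1.27 ± 0.050 to 2.70 ± 0.147 FPKM (SD, n = 3 each), with a log2 fold change of 1.03 (standard error 0.081, 95% interval 0.85 to 1.21, adjusted p = 1.1e-06 from limma). ZEB2 lay at the edge of the DEG criteria. The log2 fold change fell to 0.99 without 231-BR replicate 1, to 0.999 without MDA-MB-231 replicate 3, to 0.95 after median-of-ratios scaling, to 0.68 after quantile normalization and to 0.70 with a pseudocount of 1, each under the threshold of 1, so that SNAI2 alone then passed as higher. In MDA-MB-231 cells its mean of 1.27 FPKM was also close to the FPKM criterion of 1.

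Despite its increase ZEB2 remained the minor ZEB factor by FPKM. The ratio of ZEB2 to ZEB1 reached 0.102, 0.0992 and 0.102 in the 231-BR libraries, against 0.0549, 0.0559 and 0.0537 in the parental libraries. The log2 ratio differed by 0.88 between the lines (exact 2-sided permutation p = 0.1, the smallest possible, n = 3 each). Antisense genes are annotated opposite both (ZEB1-AS1 and ZEB2-AS1), and the library preparation is not stated to mark the strand, so that antisense reads in shared exons could not be told apart from those of the ZEB genes. A processed pseudogene, ZEB2P1, is annotated for ZEB2, and its share in the reads was not tested.

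PRRX1 had the largest increase of the set. PRRX1 (gene identifier 5396, chr1:170662728-170739419 on the plus strand) had 2.22, 2.38 and 2.25 FPKM in the 231-BR libraries and 0.31, 0.21 and 0.30 FPKM in the parental libraries. It was a low transcript in both lines, and the lines did not overlap. The mean was 2.28 ± 0.085 against 0.273 ± 0.055 FPKM (SD, n = 3 each), a ratio of 8.35, with a log2 fold change of 2.69 (standard error 0.130, 95% interval 2.39 to 2.98, adjusted p = 3.1e-08 from limma). Of the genes tested, 267 had a higher fold change. As its parental level is under 1 FPKM, PRRX1 did not meet the DEG criteria, and it met them when a mean of at least 1 FPKM in either line was enough. With a pseudocount of 1 the log2 fold change was 1.37. A long non-coding RNA gene, Z97200.1, is annotated on the same strand in overlap with PRRX1, and its share in the reads was not tested.

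VIM (gene identifier 7431, chr10:17228259-17237593 on the plus strand) had 2556, 2566 and 2537 FPKM in the 231-BR libraries and 2273, 2321 and 2325 FPKM in the parental libraries. It ranked 9 among the 17039 genes in 231-BR cells and 16 in parental cells. The means were 2553 ± 14.8 and 2306 ± 28.7 FPKM (SD, n = 3 each), a ratio of 1.11 and a log2 fold change of 0.15 (standard error 0.021, 95% interval 0.10 to 0.19, adjusted p = 1.0e-04 from limma). This increase lies close to the median of all genes, 0.08, and it moved with the scaling, to 0.06 after median-of-ratios scaling and 0.35 after quantile normalization. Antisense genes, VIM-AS1 among them, are annotated on the other strand of VIM.

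The 2 genes of the set that keep cells epithelial, GRHL2 and OVOL1, were nearly absent from both lines. GRHL2 (gene identifier 79977) was listed at 0, 0.01 and 0 FPKM in the 231-BR libraries and at 0.01, 0 and 0 FPKM in the parental libraries. OVOL1 (gene identifier 5017) was listed at 0 in the 231-BR libraries and at 0, 0.03 and 0 FPKM in the parental libraries. The libraries of the lines overlapped for both genes, and no fold change was computed. A value of 0.01 is the smallest step of the deposited values, and the depth behind it is unknown.

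**Figure D3:**
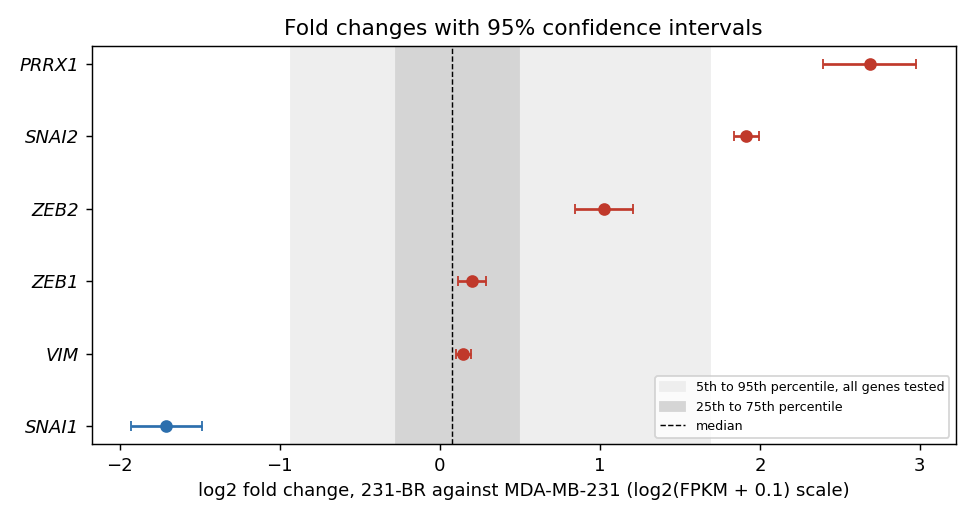
Log2 fold changes of the 6 tested genes (points) with their 95% confidence intervals from limma, over the range of all 13465 genes tested (grey bands) and their median (dashed line). SNAI1, SNAI2 and PRRX1 lie outside the band from the 5th to the 95th percentile, and ZEB1 and VIM lie near the median of 0.08.

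The order of the factors by level differed between the lines. In 231-BR cells SNAI2 came first at 37.9 FPKM and was 1.42 times ZEB1, followed by ZEB2, PRRX1 and SNAI1. In MDA-MB-231 cells ZEB1 came first at 23.2 FPKM and was 2.33 times SNAI2, followed by SNAI1, ZEB2 and PRRX1. Neighbours in either order did not overlap between libraries, except for GRHL2 and OVOL1 at the end. FPKM is scaled by transcript length, and these levels were set beside each other on that basis. The order and the shares below depend on the transcript lengths assumed, which are not given. Several transcripts are annotated for some of these genes, 25 for ZEB1 and 48 for ZEB2, and their part in the levels was not tested. The summed FPKM of the 7 factors with a row was 71.2 ± 1.66 in 231-BR cells and 40.2 ± 0.275 in parental cells (SD, n = 3 each). SNAI2 made up 53.3% ± 0.911 of this sum in 231-BR cells and 24.8% ± 0.741 in parental cells, whereas ZEB1 made up 37.5% ± 0.894 and 57.7% ± 1.39 and SNAI1 2.27% ± 0.238 and 13.7% ± 1.19 (SD, n = 3 each).

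Genes that lie together on a chromosome can differ together between lines, so the 40 nearest genes averaging 1 FPKM or more, 20 on either side, were set beside each gene. The neighbours of PRRX1 on chromosome 1 had a median log2 fold change of 0.55, and 37 of the 40 were called higher and 0 lower. PRRX1, at 2.69, lay above the highest of them, at 1.88. The neighbours of SNAI2 on chromosome 8 had a median of -0.03, with 14 called higher and 15 lower, and the highest of them lay just above SNAI2. SNAI1 on chromosome 20 lay below all its neighbours, whose median was -0.28 and whose lowest value was -1.59. The medians around ZEB2 on chromosome 2 and around ZEB1 and VIM, both on chromosome 10, were -0.29, -0.30 and -0.21, whereas these 3 genes had positive fold changes. The part of the surrounding stretch in the change of PRRX1 was not tested.

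**Figure D4:**
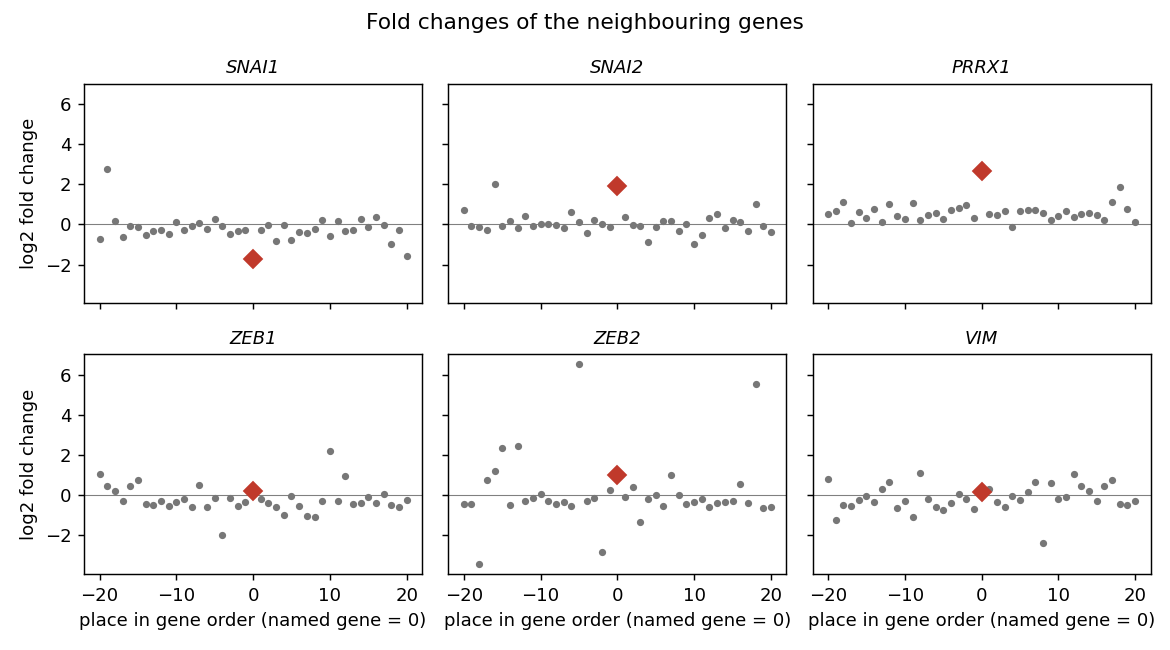
Log2 fold changes of each gene (red diamond, place 0) and of the 20 expressed genes on either side of it in chromosomal order (grey points). Nearly all neighbours of PRRX1 lie above 0, with 37 of 40 called higher, and the neighbours of the other 5 genes scatter around or below 0.

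Other genes of the EMT programme were then described in 8 lists by role. Of 16 other factors reported to induce EMT, 14 had a row and 11 were tested, with 7 called higher and 3 lower (44.4% and 32.9% of all genes tested) and a median log2 fold change of 0.43 (0.08 over all genes tested). TEAD2, a partner of the Hippo effectors YAP1 and WWTR1, rose from 0.543 ± 0.162 to 6.71 ± 0.419 FPKM (SD, n = 3 each; log2 fold change 3.43). FOXQ1, a forkhead factor, rose from 2.23 ± 0.208 to 15.3 ± 0.138 FPKM, and SOX4 from 1.02 ± 0.080 to 3.04 ± 0.047 FPKM (SD, n = 3 each). SNAI3, the remaining SNAI paralogue, stood at 0.127 FPKM in 231-BR and 0.167 FPKM in parental cells and was not called.

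Of 18 other epithelial transcription and splicing factors, 11 were tested, of which 7 were called higher and 4 lower (44.4% and 32.9% of all genes tested). Most were low, and 10 of the 16 with a row were under 1 FPKM in both lines. SPDEF, an ETS factor of luminal and secretory cells, rose from 0.0733 ± 0.047 to 2.67 ± 0.309 FPKM, and FOXA1, a pioneer factor of luminal cells, had 5.47 ± 0.243 against 0.840 ± 0.105 FPKM (SD, n = 3 each). ESRP2, a splicing factor of epithelial isoforms, went the other way, with 0.360 ± 0.062 against 2.62 ± 0.395 FPKM (SD, n = 3 each).

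TWIST factors act as dimers with E proteins, which ID proteins sequester. Of the 7 partners and inhibitors tested 1 was called higher and 4 lower (44.4% and 32.9% of all genes tested), with a median log2 fold change of -0.19. The E proteins TCF3 and TCF12 had log2 fold changes of -0.00175 and -0.19, and TCF3 and TCF4 were not called. ID1, ID2 and ID3 were lower in 231-BR cells, of which ID3 had 17.3 ± 0.528 against 46.8 ± 2.15 FPKM and ID2 0.477 ± 0.095 against 2.26 ± 0.205 FPKM, whereas ID4 had 1.18 ± 0.122 against 0.187 ± 0.040 FPKM (SD, n = 3 each). ID1, TCF3, TCF4 and TCF12 were named after their values were seen.

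Of 35 cofactors and regulators of the stability of SNAI and ZEB proteins, 34 were tested, and 17 were called higher and 9 lower (44.4% and 32.9% of all genes tested), with a median log2 fold change of 0.11. GSK3B, the kinase that marks SNAI1 protein for degradation, rose from 4.99 ± 0.122 to 12.8 ± 0.180 FPKM (SD, n = 3 each; log2 fold change 1.35). The lysyl oxidases LOXL2 and LOXL3, which bind SNAI1 protein, differed in direction, with log2 fold changes of -0.73 and 1.07. Of 28 genes of inducing signals tested 13 were called higher and 7 lower (44.4% and 32.9% of all genes tested), with a median of 0.11. This list also holds inhibitors of these signals, SMAD7 among them. The Notch ligand JAG1 rose from 7.71 ± 0.463 to 26.6 ± 0.904 FPKM (SD, n = 3 each). SMAD7, an inhibitor of TGF-beta signalling, fell from 3.13 ± 0.424 to 0.980 ± 0.026 FPKM (SD, n = 3 each). IL6, a cytokine, fell from 4.77 ± 0.160 to 0.297 ± 0.076 FPKM (SD, n = 3 each). Among other inhibitors of the list, SMAD6 rose from 0.587 ± 0.127 to 1.35 ± 0.083 FPKM (SD, n = 3 each), and SKI and SKIL were not called. SMAD6, SKI and SKIL were named after their values were seen. Of 10 cytoskeletal partners and relatives of vimentin tested, 2 were called higher and 7 lower (44.4% and 32.9% of all genes tested), with a median of -0.29. The largest decreases among them were those of LMNA (-0.70), FLNA (-0.46) and KIF5B (-0.41 on the log2 scale), which encode lamin A/C, filamin A and a kinesin.

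Of 39 epithelial genes 31 were tested, and 19 were called higher and 8 lower in 231-BR cells (44.4% and 32.9% of all genes tested), with a median log2 fold change of 0.77. Many were low, and 14 of the 39 were under 1 FPKM in both lines. The DEG criteria were passed by 7 as higher and 1 as lower (4.68% and 1.77% of all genes tested). KRT19 rose from 2.90 ± 0.332 to 90.9 ± 3.32 FPKM and EPCAM from 5.06 ± 0.552 to 8.70 ± 0.533 FPKM (SD, n = 3 each). KRT7 fell from 77.0 ± 7.18 to 0.713 ± 0.110 FPKM and LSR, a protein of tricellular junctions, from 13.5 ± 0.456 to 0.503 ± 0.084 FPKM (SD, n = 3 each). CDH1, at most 0.03 FPKM in any library, was not tested.

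Of 44 mesenchymal genes 35 were tested, with 17 called higher and 14 lower, close to the background (44.4% and 32.9% of all genes tested), and a median of 0.22. After median-of-ratios scaling 14 were higher and 16 lower, where 5247 of all 13453 genes tested were called higher and 5182 lower. The list thus has no direction that held, and the balance of all called genes moved with the scaling too. CDH11, a cadherin of mesenchymal cells, rose from 0, 0.01 and 0.01 FPKM in the parental libraries to a mean of 56.2 ± 1.06 FPKM, while TGFBI, a secreted matrix protein induced by TGF-beta, fell from 94.6 ± 1.11 to 0.987 ± 0.134 FPKM and COL6A3 from 1.38 ± 0.006 to 0.0967 ± 0.015 FPKM (SD, n = 3 each). FN1, which encodes fibronectin, rose from 7.84 ± 0.272 to 20.3 ± 0.225 FPKM (SD, n = 3 each). CDH2, which encodes N-cadherin, was low in both lines, at 0.110 ± 0.030 and 0.117 ± 0.038 FPKM (SD, n = 3 each), with a log2 fold change of -0.04 (95% interval -0.52 to 0.44, adjusted p = 0.87 from limma).

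**Figure D5:**
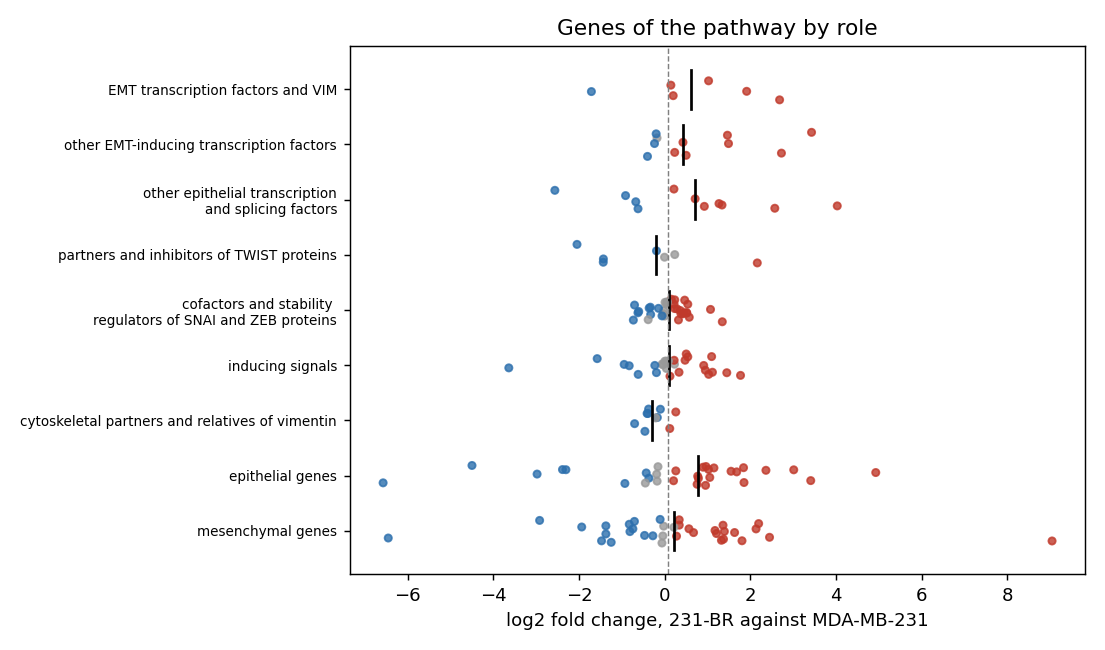
Log2 fold changes of every tested gene in the EMT set and the 8 lists, in red where called higher in 231-BR cells, in blue where called lower and in grey where not called, with a black bar at the median of each list and a dashed line at the median of all genes tested, 0.08. The epithelial and mesenchymal genes spread far to both sides, while the cofactors lie close to the centre.

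The genes of the lists were also divided by the matches in their promoter windows. A gene counted as having a match if any of its windows held 1, so genes with several windows had more chances. Among the tested epithelial genes counted so, CD24, SPINT1, DSC2 and CLDN7 each also had a window without a match. Of the 11 tested epithelial genes with a CACCTG or CAGGTG match in a window 8 were called higher, 1 lower and 2 were not called, and of the 6 tested genes with windows but no match 1 was called higher and 5 lower (44.4% and 32.9% of all genes tested). The other epithelial transcription and splicing factors went the other way, with 1 called higher and 2 lower among the 3 tested genes with a match and 5 higher and 1 lower among the 6 without. Of the mesenchymal genes, 3 were higher and 1 lower among the 4 tested with a match, and 10 were higher and 11 lower among the 25 without. CLDN7, a tight junction protein with 5 matches in the window shown and 0 in its other window, rose from 1.54 ± 0.113 to 5.79 ± 0.572 FPKM (SD, n = 3 each). DSP, a desmosomal protein with 2 matches, rose from 4.70 ± 0.384 to 17.2 ± 0.579 FPKM (SD, n = 3 each). CRB3, a polarity protein with 5 matches, had 0.17, 0.16 and 0.17 FPKM in the 231-BR libraries and 0.06, 0 and 0 FPKM in the parental libraries and was too low to be tested. CLDN3, with 1 match, was the tested epithelial gene with a match that was called lower. It fell from 0.547 ± 0.093 FPKM (SD, n = 3) to 0.03 FPKM in each 231-BR library (log2 fold change -2.30). PATJ, with 3 matches, and DSC2 were those not called. CLDN7 and CRB3 were named for their windows. CLDN3, PATJ, DSC2, CD24 and SPINT1 were named after their values were seen. The division was made after the fold changes were seen, covers the genes with windows only and was not tested.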

How the data were processed

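The authors sequenced poly(A) RNA of 6 libraries on a BGISEQ-500, filtered the reads, mapped them to the genome and aligned them to a set of coding transcripts, and deposited expression per gene as FPKM with 2 decimals. The submitters' processing notes name HISAT2 2.0.4, Bowtie2 2.2.5 and the build GRCh38.p12, and the program that computed FPKM is not given in the sources used here. The FPKM files of the 6 samples were identical to the matrix, which was used for all values. Libraries were grouped by title, since the number in the cell line label rises from replicate to replicate.

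log2(FPKM + 0.1) was fitted with R 4.3.3 and limma 3.58.1 (lmFit, eBayes with a mean-variance trend, 1 term for the line) for genes averaging 0.1 FPKM or more, in place of the authors' DESeq2, which needs counts. The fit was tested on simulated data with known changes. The genes and lists were chosen with earlier results of these data known. Beside the EMT set, the genes named were CDH1, EPCAM, CDH2, FN1, GSK3B and up to 3 genes of each list with the largest fold change among those called and averaging 1 FPKM or more in either line, with exceptions stated. Gene positions came from GENCODE 29, and promoters and gene order from RefSeq (GRCh38.p14). Alternatives were pseudocounts of 1 and 0.01, no filter and a filter at 1 FPKM, 2 scalings, no trend, a replicate block, each library left out, and other DEG criteria. Python 3.11.15, pandas 2.3.3 and matplotlib 3.10.9 were used for values and plots.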

Additional observations from a re-analysis of the deposited data

How the results depend on the processing

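The 6 genes tested kept their direction and their call at an adjusted p under 0.05 under all 14 alternatives to the fit. The log2 fold change ranged from -1.99 to -1.31 for SNAI1, from 1.83 to 1.94 for SNAI2, from 1.37 to 3.04 for PRRX1, from 0.68 to 1.08 for ZEB2, from 0.12 to 0.23 for ZEB1 and from 0.06 to 0.35 for VIM. The number of genes of the EMT set past the DEG criteria as higher, 2 with all libraries, was 1 with a pseudocount of 1, after median-of-ratios scaling, after quantile normalization and with an absolute log2 fold change over 1.5, and between 1 and 2 with each library left out. The difference of the log2 ratio of ZEB2 to ZEB1 was 0.83 when 0.1 was added to the FPKM, which draws low values together. Of the vimentin partners 1 was called higher after median-of-ratios scaling, where 5247 of the 13453 genes tested were called higher. With a filter at a mean FPKM of 1, which leaves fewer genes to test, 4 epithelial factors were called higher and 1 lower, and 0 TWIST partners were called higher. Of the 11124 genes tested at this filter, 5063 were called higher and 3949 lower. CDH2, which was not called, had a log2 fold change of 0.07 without 231-BR replicate 1 and 0.10 without MDA-MB-231 replicate 3, with a range from -0.14 to 0.10 over the libraries left out. The labels do not state whether the same-numbered libraries of the lines belong together. Their deviations from the group means had correlations of 0.087, -0.040 and -0.106, and not every library correlated best with its own number. Correlations over so few libraries cannot settle this, and the main fit used no pairing. With the replicate block 5 genes were called higher and 1 lower, as without it. Of all 13465 genes tested, 6015 were then called higher and 4487 lower. The unknown depth limits what can be said of GRHL2, OVOL1 and CDH1.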

Other observations

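For each gene of the EMT set with a mean of at least 1 FPKM in either line, the genes closest to it in level were sought by the Euclidean distance of log2(FPKM + 0.1) over the 6 libraries. The lines form 2 clusters of 3 libraries, so that this likeness rests on the level in each line. Closest to SNAI2 was LAYN, with 39.3 ± 0.442 FPKM in 231-BR cells and 9.25 ± 0.459 FPKM in parental cells (SD, n = 3 each, distance 0.229), followed by CHML. Closest to SNAI1 was SLC47A1, with 5.38 ± 0.405 FPKM in the parental line (SD, n = 3, distance 0.367), followed by PRKCZ. Closest to PRRX1 was SEMA3E, with 2.69 ± 0.071 and 0.300 ± 0.020 FPKM (SD, n = 3 each, distance 0.499), followed by GPRC5B. For ZEB2 these were CDON and MAOA, and for ZEB1 they were SMC6 and UBE2G1. VIM lay closest to NPM1 and RPLP0, which had 2463 and 2358 FPKM in 231-BR cells.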
